A study of Mus musculus with 3 samples.

Results

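Heme breakdown and iron handling were followed through 4 genes in a map of binding of the transcription factor Nrf2, made by chromatin immunoprecipitation and sequencing (ChIP-seq) in mouse embryonic fibroblasts. Hmox1 encodes heme oxygenase 1, Fth1 and Ftl1 encode the heavy and light subunits of ferritin, and Slc40a1 encodes ferroportin. The members are the regions of the deposited list whose highest position lies in a fixed window around 1 of these genes, which takes in the gene and about 50 kb on each side in the mouse build mm9. They number 6 of the 1256 listed regions (0.478%), and each of the 4 windows held at least 1. A place in a window does not assign a region to its gene. There were 2 in the Hmox1 window, 1 in the Fth1 window, 1 in the Ftl1 window and 2 in the Slc40a1 window.

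The series had 3 libraries of fibroblasts that all carried the genotype Keap1-/-, were of strain CD-1 and were labelled with a stage of 8 to 10 weeks. One was made with a rabbit monoclonal antibody to Nrf2, one with a rabbit polyclonal antibody to Nrf2, and one was a control, which the sample label ties to an anti-rabbit IgG antibody and the design text to input DNA. No cells with Keap1 were among these libraries. Loss of Keap1 is known to spare Nrf2 from degradation, and the activity of Nrf2 was not measured in these libraries. With 1 library per kind and 1 region list for the series, there is no replicate, sequencing depth is unknown, and no value belongs to a single antibody. Identity of the cells could not be checked against marker genes, since the list holds no expression.

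Heme oxygenase opens the heme ring and frees its iron, with biliverdin and carbon monoxide as the other products. Ferritin is a hollow shell of heavy and light chains that stores the iron. The heavy chain oxidises iron on its way in, and the light chain helps it settle in the core. Ferroportin carries iron out of the cell. Nrf2, paired with small Maf proteins, acts on such genes through antioxidant response elements, short DNA motifs that often lie in enhancers away from the start site. Bach1, a repressor that releases DNA when it binds heme, competes for the same elements. The messenger RNAs of ferritin and ferroportin are also controlled after transcription, by iron regulatory proteins.

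Each height is a value that the authors gave for the highest position. Its unit is not given in the sources used here, so heights are compared only between regions of the list. Over the whole list the height ran from 5 to 122.128, with a median of 10.1 and a mean of 11.9. The 6 regions had heights of 7.885, 15.236, 15.903, 16.115, 22.459 and 25.264, with a median of 16.0. All but the lowest were above the mean of the list, 5 of 6 regions, where 32.1% of the list was. Of the 6 regions, 2 were among the 100 tallest, which make up 7.96% of the list. None was among the 10 tallest, the last of which had a height of 47.376.

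**Figure D1:**
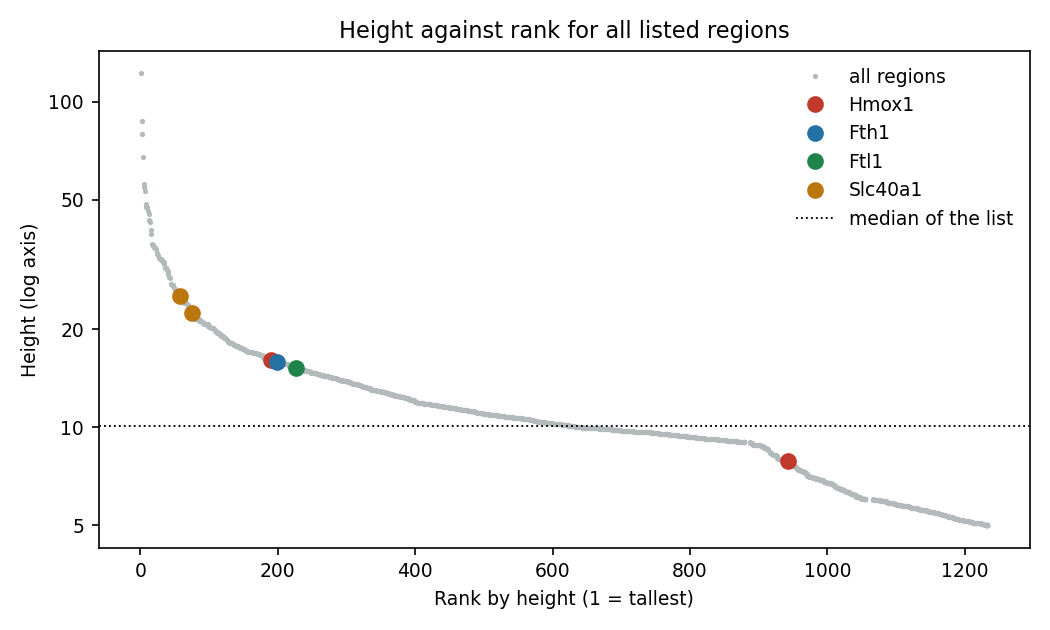
Height of each listed region (vertical log axis, in the authors' unit) against its rank by height (horizontal axis, 1 is the tallest), with the 6 regions of the gene windows as large coloured points and the median of the list, 10.1, as a dotted line. The Slc40a1 regions stand at ranks 58 and 75, the Fth1, Ftl1 and taller Hmox1 regions between ranks 190 and 227, and the lower Hmox1 region at rank 943, below the median.

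Hmox1, the enzyme gene of heme breakdown, had a pair of regions of unequal height on chromosome 8. The first ran from 77607694 to 77608003, peaked at 77607825 and reached 16.115, rank 190 of 1256 and rank 11 of the 69 regions of that chromosome. The second ran from 77613441 to 77613773, peaked at 77613577 and reached 7.885, rank 943 in the list and rank 58 on the chromosome. The first was thus 1.60 times the median height of the list and the second 0.783 times it. Their highest positions were 5752 bp apart, and 5438 bp without a listed region separated their edges.

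Hmox1 is known for a pair of upstream enhancers, a proximal and a distal one, each with several antioxidant response elements. The mouse gene is read towards higher coordinates, so its upstream side is the lower one. Both regions lay on that lower side of the middle of the window, by 12.2 kb for the taller and 6.42 kb for the lower one. The region farther out on this side was therefore the taller of the pair, 2.04 times the height of the inner one. No listed region lay on the other side of the middle, and none within 1 Mb outside the window on either side. In the order of GRCm38 the next protein-coding genes are Tom1, an adaptor of endosomal sorting, on the lower side and Mcm5, a subunit of the replicative helicase, on the upper side. Whether either region is nearer to Tom1 was not determined. The next listed regions were 3903 kb below and 6791 kb above the window. By the flanks of 50 kb, the gene should lie between about 77.61 and 77.63 Mb. The taller region was 2.18 kb below that interval, and the region of lower height was inside it. Being inside it does not tell whether that region lay before the start, at it or within the gene. Window edges are rounded to 10 kb, and no mm9 annotation was used here. Distances to the start site were therefore not analysed here, and the 2 regions cannot be assigned to the proximal and the distal enhancer from these values alone.

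The ferritin subunit genes each had a single region close to the middle of the window, and the heights of both were alike. The Fth1 region, on chromosome 19 from 10052893 to 10053322, peaked at 10053129 with a height of 15.903, rank 199 in the list and rank 8 of 54 on its chromosome. The Ftl1 region, on chromosome 7 from 52716188 to 52716538, peaked at 52716370 with a height of 15.236, rank 227 in the list and rank 6 of 34 on its chromosome. Together with the taller Hmox1 region, these 3 heights lay within 0.879 of each other, a band that held 38 of the 1256 regions. The grouping into a band was noticed from the values, and without replicates the error of a height is unknown.

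The Fth1 peak lay 1.87 kb below the middle of its window and the Ftl1 peak 1.37 kb above it. Both were inside the interval that the flanks leave for the gene, about 10.05 to 10.06 Mb for Fth1 and 52.71 to 52.72 Mb for Ftl1. Fth1 is on the forward strand and Ftl1 on the reverse strand, per RefSeq. For Fth1 the lower side is the upstream one, and for Ftl1 it is the upper side, so both peaks were displaced from the middle towards the upstream side of the gene. These displacements are smaller than the 10 kb to which the windows are rounded. They do not tell whether a region lay before the start, at it or within the gene. Around Ftl1 genes are closely packed: its next protein-coding neighbours are Gys1, muscle glycogen synthase, and Bax, a promoter of cell death, in the order of the later build GRCm38. The neighbours of Fth1 are Incenp, a centromere protein, and Best1, a chloride channel. Which of these genes a region is nearest to was not determined.

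**Figure D2:**
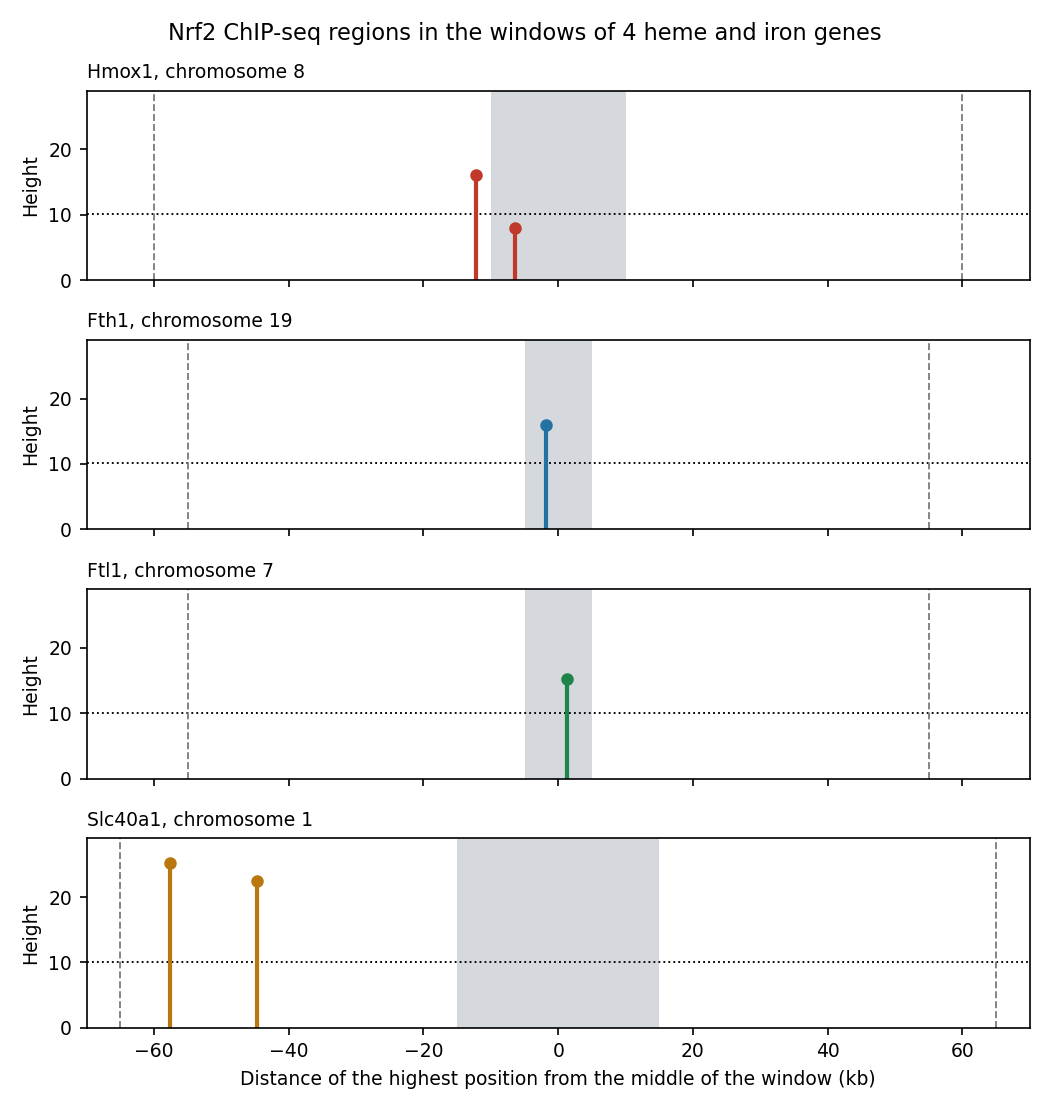
Height of the regions (vertical axis, authors' unit) against the distance of the highest position from the middle of the window (horizontal axis, kb, coordinates rising to the right), 1 panel per gene. Dashed lines are the window edges, grey bands are the interval left for the gene by flanks of 50 kb, and the dotted line is the median of the list, 10.1. The Fth1 and Ftl1 regions stand near the middle, the Hmox1 pair 12.2 and 6.42 kb below it, and the Slc40a1 pair 57.6 and 44.7 kb below it.

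The sequence just before the ferritin starts is shown because the ferritin regions are the ones nearest the middle of their windows. The sequence of the regions themselves was not read, as no mm9 genome was used here. The table of start sequences from RefSeq (build GRCm38.p6) matched 2 of the 4 genes, with 1 start for Ftl1 and 2 for Fth1. Hmox1 and Slc40a1 were not matched. Given below are the 250 bases before each start, 5′ to 3′ on the strand of the gene, at chr7:45459887-45460136 (reverse strand) for Ftl1, at chr19:9980350-9980599 (forward strand) for the first Fth1 start and at chr19:9982396-9982645 (forward strand) for the second. Capitals mark each TGAC or its reverse complement GTCA, the fixed first bases of the antioxidant response element when written TGACNNNGC. A looser form, TGANNNNGC, fixes only TGA of these, and its other first bases are not marked.
Ftl1: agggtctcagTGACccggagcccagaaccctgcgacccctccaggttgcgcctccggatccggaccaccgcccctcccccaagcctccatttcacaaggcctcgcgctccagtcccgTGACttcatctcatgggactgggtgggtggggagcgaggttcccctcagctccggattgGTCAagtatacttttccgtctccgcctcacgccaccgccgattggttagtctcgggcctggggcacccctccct
Fth1, first start: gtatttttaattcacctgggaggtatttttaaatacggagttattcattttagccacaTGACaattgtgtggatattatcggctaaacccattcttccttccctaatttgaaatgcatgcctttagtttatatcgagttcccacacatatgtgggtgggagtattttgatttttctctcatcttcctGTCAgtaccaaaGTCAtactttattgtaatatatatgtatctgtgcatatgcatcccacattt
Fth1, second start: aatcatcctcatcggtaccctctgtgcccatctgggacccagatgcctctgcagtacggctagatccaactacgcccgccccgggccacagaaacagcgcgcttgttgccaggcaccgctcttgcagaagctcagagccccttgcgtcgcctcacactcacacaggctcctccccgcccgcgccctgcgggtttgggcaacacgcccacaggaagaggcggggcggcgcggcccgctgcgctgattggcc

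The half-site occurred 3 times before the Ftl1 start, 3 times before the first Fth1 start and 0 times before the second. In all start sequences of the table the median was 2, and 80.2% had at least 1. None of the 6 half-sites was followed by the GC that completes the element. Over the full 300 bases, from 250 before to 50 after the start, 0 of 3 ferritin starts held TGACNNNGC on either strand, against 12.4% of the 32851 start sequences of the table. The looser form TGANNNNGC, which includes every match to TGACNNNGC, was likewise in 0 of 3, against 41.3% of all. The sequences before the Ftl1 start and the second Fth1 start were rich in G and C, at 65.2% and 66.8%, and the first Fth1 start at 34.8% was not, beside a median of 52.4% over the table. These letters describe the windows of 300 bases only and give no information on the listed regions, whose place relative to the starts was not analysed here.

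Slc40a1, the gene of the iron exporter, had the tallest regions of the 6, a pair far from the middle of its window on chromosome 1. One region ran from 45917159 to 45917579, peaked at 45917378 and reached 25.264, rank 58 of 1256. The other ran from 45930115 to 45930481, peaked at 45930288 and reached 22.459, rank 75. On a chromosome with 172 listed regions, these were the tallest but 1 and the fifth tallest, at ranks 2 and 5. The taller was 2.51 times and the lower 2.23 times the median height of the list, and they differed from each other by a ratio of only 1.12. Their highest positions were 12910 bp apart.

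Both lay on the lower side of the window, 57.6 and 44.7 kb below its middle. They were 42.6 and 29.7 kb below the interval left for the gene, about 45.96 to 45.99 Mb, so neither overlapped it. Mouse Slc40a1 is read towards lower coordinates, and the regions were therefore on the side of its 3′ end. No listed region lay in the interval of the gene or on its upstream side within the window. The next protein-coding gene on the lower side is Wdr75, a factor of ribosome production, in the order of GRCm38, and whether the regions lie nearer to it was not determined. On the upper side the next is Dnah7b, a dynein heavy chain of the axoneme. The outer region was 7.38 kb inside the window edge and the inner one 20.3 kb, and with windows narrowed by 25 kb on each side Slc40a1 had 0 regions. Of the 4 genes, Slc40a1 was the only one whose count fell to 0 in this narrowing, since the other regions were all within 12.2 kb of the middle.

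Both Hmox1 and Slc40a1 regions came as close pairs, and the ferritin regions stood alone. Of the 6 regions, 4 had another region within 20 kb, those of Hmox1 and Slc40a1, against 21.0% of the list. The Fth1 and Ftl1 regions had their nearest neighbours 225 kb and 163 kb away, and the median over the list was 289 kb. No member touched another region or lay within 1 kb of one. The list had 26 isolated pairs, defined as 2 regions spaced by 1 to 20 kb with no other within 100 kb, and both pairs belong to them. Across these 26 pairs the ratio of the taller to the lower height had a median of 1.32 and ran from 1.02 to 6.36. Only 3 of the 26, the Hmox1 pair included, had a ratio of 2.04 or more. The ratio of the Slc40a1 pair, 1.12, was below the median, and 7 of the 26 pairs had a lower one. Its regions were tall for such pairs: 3 of 26 pairs, itself included, had a taller region of at least 25.264, and 2 of 26 a lower region of at least 22.459. These counts are a description of the list, and no test was made.

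**Figure D3:**
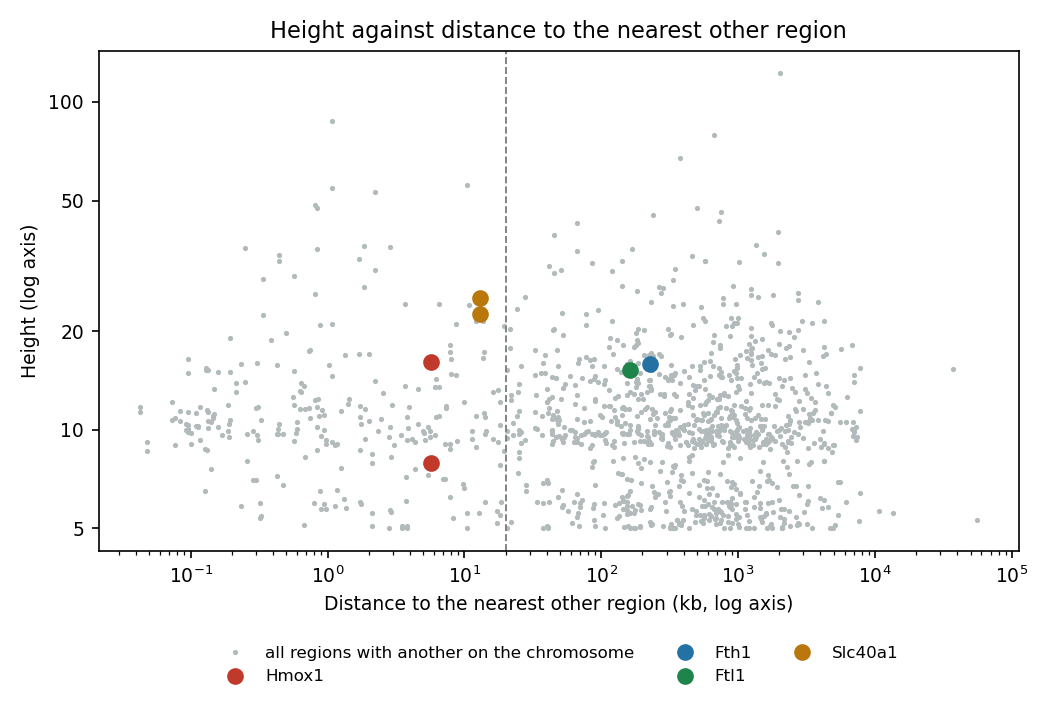
Height of each region (vertical log axis, authors' unit) against the distance between its highest position and that of the nearest other region (horizontal log axis, kb), with the 6 regions of the gene windows as large coloured points and a dashed line at 20 kb. The Hmox1 pair at 5.75 kb and the Slc40a1 pair at 12.9 kb lie left of the line, and the Ftl1 and Fth1 regions at 163 and 225 kb lie right of it.

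The 6 regions were 309 to 429 bp wide with a median of 358 bp, against 345 bp in the list. The highest position was displaced from the middle of the region by 2.00% to 9.04% of its width, with a median of 3.87%, against 5.14% in the list. Both Hmox1 regions, at 7.61% and 9.04%, were displaced more than the others, and the Fth1 region at 5.01% came next. The Ftl1 region and the Slc40a1 pair had the smallest displacements, at 2.00%, 2.14% and 2.73%. The shape of the signal within a region is not in the list.

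Within 1 Mb on either side of a window, the Fth1, Ftl1 and Slc40a1 windows had 1 further region each and the Hmox1 window had 0. These 3 regions in 8 Mb stand beside 3.86 at the mean density of the list, 0.482 regions per Mb. The one near Fth1, 172 kb below the window, was low at 5.229 (rank 1186). The one near Slc40a1, 597 kb above the window, was also low at 5.723 (rank 1114). The one near Ftl1, 109 kb above the window, reached 12.985 (rank 341) and was the closest region outside any of the windows. Listed regions were sparse on chromosome 7 as a whole, at 0.228 per Mb, the lowest density of the autosomes, beside 0.528 on chromosome 8, 0.873 on chromosome 1 and 0.880 on chromosome 19. When the chromosomes were cut into consecutive stretches of 120 kb, close to the 110 to 130 kb of the windows, 4.71% of 21707 stretches held at least 1 region and 0.507% held at least 2. All 4 gene windows held at least 1, and 2 of 4 held at least 2. The stretches cover gene deserts as well as genes, and their fixed edges can split a close pair that a gene window holds whole. The 4 genes are known Nrf2 targets that were picked with the list in view. For these reasons the shares are given side by side without a test.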

How the data were processed

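The deposited file lists regions of the whole series with chromosome, start, end, highest position and height. The height was used as a signal as deposited, per the file headers. Not given in the sources used here were the aligner, the caller of regions with its thresholds, any scaling of heights and the part played by the control. Per the submitters' processing notes, coordinates are in mm9. Whether positions count from 0 or 1 is not stated. Depth per library is unknown, so no interval was given for a height. Samples were grouped by title, and with 1 library per group no test was made. The members and lists were chosen with earlier results of these data known.

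Regions were kept when the highest position fell in a window, and ranks were taken over all 1256 regions, ties sharing the smaller rank. Chromosome length was the end of the last listed region. RefSeq tables of GRCm38.p6 gave neighbouring genes by order, strands of the ferritin genes and start sequences. Strands of Hmox1 and Slc40a1 are textbook knowledge. Another 18 heme and iron genes listed for description were not placed, for want of an mm9 annotation. The steps that find, rank and join regions were tested on simulated data. Named were the 4 genes of the rule and their neighbours. Alternatives varied the window, the heights kept, the joining of regions and the ranking. Computations used Python 3.11.15, numpy 2.4.6, pandas 2.3.3, scipy 1.17.1 and matplotlib 3.10.9.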

Additional observations from a re-analysis of the deposited data

How the results depend on the processing

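The count of 6 regions was 6 with windows widened by 50 kb, with any overlap counted and with regions within 1 kb joined, 5 among the 628 tallest and among heights of 9 or more, and 4 with windows narrowed by 25 kb. The losses were the lower Hmox1 region under both height limits and the Slc40a1 pair in the narrowed windows. Set against the mean height of the whole list, of the chromosome, of regions with no other within 20 kb (the members kept) or of joined regions, 5 members were above it each time. Against the mean of the 628 tallest, which is higher by construction, 2 were. The limit of 9 and the motif search in start sequences, with both of its alternatives, were chosen after seeing the data. The motif count was 0 in the main search and in each alternative. No paired analysis was possible because there is 1 library per group and no column per library. Distances to start sites and motifs within the regions were not run, since both need an mm9 annotation or genome. With depth unknown, a gene side without a region may lack binding or reads.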
